A study of Mus musculus with 6 samples.

Results

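The transcripts described are 10 genes of the circadian clock and its direct outputs, measured in the aortic wall of atherosclerosis-prone mice: Arntl, Npas2, Nr1d1, Nr1d2, Dbp, Tef, Per2, Per3, Bhlhe40 and Bhlhe41. They were taken by gene symbol from the deposited table, in which all 10 were found once each among 55487 genes. RNA of the media and intima, without the adventitia, was sequenced as 6 libraries. In 3 libraries (genotype Apoe-/-BMT/ChemR23e/eApoe-/-) bone marrow of Apoe-/- mice had been given to ChemR23e/eApoe-/- recipients, and these are called labelled ChemR23-deficient. In the other 3 (genotype Apoe-/-BMT/Apoe-/-) the same kind of marrow had been given to Apoe-/- recipients, and these are called labelled control. All animals thus lacked Apoe, an apolipoprotein that clears lipoproteins, and all blood-forming donor cells kept an intact ChemR23 gene, so the labelled deficiency concerns the recipients' other cells. Transplantation took place at 8 to 10 weeks of age, with 4 weeks of recovery and then 6 weeks of a Western diet (21% fat, 0.15 to 0.2% cholesterol). The labels give neither the time of day at which the aortas were taken nor the lighting schedule, nor the sex of recipients or donors, nor whether each library came from 1 animal, so the spread that p-values measure is that between samples and may be technical.

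The clock is a transcriptional feedback loop that runs in nearly every cell. Its activators, the protein made from Arntl (BMAL1) paired with CLOCK or its relative NPAS2, bind E-boxes and switch on the Per and Cry genes, the nuclear receptor genes Nr1d1 and Nr1d2 (REV-ERB alpha and beta), the repressor genes Bhlhe40 and Bhlhe41 (DEC1 and DEC2) and output factors such as Dbp. The PER and CRY proteins then shut their own activators off, the REV-ERB proteins repress Arntl and Npas2 through ROR elements, and DBP, TEF and HLF act on D-boxes where NFIL3 (E4BP4) opposes them. Arntl and Npas2 transcripts therefore peak in mouse tissues at a time when Dbp, Nr1d1 and Per3 are low, and each transcript taken at one moment depends on the hour of sampling. In vessels the clock is known for daily rhythms of tone and blood pressure.

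Promoters that hold the letters of these elements are shown, since the elements name the limbs of the loop by which the members are ordered. Promoter sequences, running from 250 bases before to 50 bases after the start site, came from RefSeq (GRCm38.p6) and were matched by symbol for 8 of the 10 members, in 10 windows. Bhlhe40 and Per2 had no entry. The 3 motifs searched, on both strands, were the E-box CACGTG, the D-box TTATGTAA or TTACGTAA, and the ROR element TAGGTCA, and 0 matches overlapped one of another motif. The E-box stood in 3 of the 10 member windows (Bhlhe41 and both Tef windows), against 7.15% of all 32851 windows. Counted by gene, it stood in 2 of 8 members, against 8.09% of all genes. The windows of Dbp, Nr1d1 and Nr1d2 held no E-box, while the other loop genes Ciart, Cry1 and Per1 had one or more in a window. The D-box stood in 1 member window, that of Per3, which held it at 2 places starting 205 and 158 bases before the start site (positions -205 and -158), against 1.06% of all windows. The ROR element stood in 1 member window, one of those of Arntl, at position 31 (counted from 1 at the start site), against 2.61% of all windows. Among other loop genes, Nfil3 held it on the opposite strand at position -12. Matches are given as letters in a window and not as sites shown to be used. In the sequences, read 5′ to 3′ along the gene's strand, capitals mark the motif: ROR element for Arntl (chr7:113207261-113207560, plus strand) and Nfil3 (chr13:52980990-52981289, minus strand), D-boxes for Per3 (chr4:151044616-151044915, minus strand), and E-boxes for Bhlhe41 (chr6:145865371-145865670, minus strand) and Tef (chr15:81811164-81811463, plus strand).
Arntl: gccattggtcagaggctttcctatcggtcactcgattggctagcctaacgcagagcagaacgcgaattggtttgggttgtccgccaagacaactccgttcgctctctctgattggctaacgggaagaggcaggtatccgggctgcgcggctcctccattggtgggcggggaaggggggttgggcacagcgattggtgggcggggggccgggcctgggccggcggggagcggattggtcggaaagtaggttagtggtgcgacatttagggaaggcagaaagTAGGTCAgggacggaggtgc
Nfil3: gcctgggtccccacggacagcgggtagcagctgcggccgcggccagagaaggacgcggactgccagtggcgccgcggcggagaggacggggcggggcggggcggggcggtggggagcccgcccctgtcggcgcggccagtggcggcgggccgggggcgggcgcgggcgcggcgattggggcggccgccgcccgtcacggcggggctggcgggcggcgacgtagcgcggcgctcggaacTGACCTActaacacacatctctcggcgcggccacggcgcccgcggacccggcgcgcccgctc
Per3: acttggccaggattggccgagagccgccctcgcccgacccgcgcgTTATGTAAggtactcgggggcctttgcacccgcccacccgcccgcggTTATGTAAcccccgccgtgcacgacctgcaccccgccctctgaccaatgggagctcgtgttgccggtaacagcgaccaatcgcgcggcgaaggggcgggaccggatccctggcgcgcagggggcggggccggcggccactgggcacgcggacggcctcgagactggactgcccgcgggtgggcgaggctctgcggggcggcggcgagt
Bhlhe41: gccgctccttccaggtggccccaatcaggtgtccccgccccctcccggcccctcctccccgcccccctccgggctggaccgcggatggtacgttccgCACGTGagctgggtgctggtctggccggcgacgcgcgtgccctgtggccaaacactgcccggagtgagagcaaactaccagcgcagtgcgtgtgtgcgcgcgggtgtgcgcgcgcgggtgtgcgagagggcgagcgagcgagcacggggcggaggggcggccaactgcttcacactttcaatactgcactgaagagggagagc
Tef: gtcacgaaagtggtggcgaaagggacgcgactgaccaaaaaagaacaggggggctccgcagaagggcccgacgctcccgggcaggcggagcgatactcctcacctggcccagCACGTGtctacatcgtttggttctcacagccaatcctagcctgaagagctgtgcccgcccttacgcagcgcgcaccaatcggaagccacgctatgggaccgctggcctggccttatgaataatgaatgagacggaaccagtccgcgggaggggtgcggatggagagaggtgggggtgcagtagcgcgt

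Facts about the libraries bear on every direction given. Each library held between 30887855 and 38600604 recovered reads. In the authors' deposited table the column of means named treated equals, for all 55487 genes, the mean of the 3 libraries that the sample labels call control, and the column named control equals the mean of the 3 labelled ChemR23-deficient (0 genes deviating by more than 1e-06). Cmklr1, which encodes ChemR23, read 2388, 1788 and 1551 normalized counts under the deficient label and 1396, 1028 and 1720.2 under the control label, so it was not lower where a loss is labelled (log2 difference 0.47, SE 0.21, limma adjusted p = 0.427). Which exons the e allele changes was not given, so these counts check the labels only in part. All directions are therefore between libraries as labelled. Smooth muscle markers, the defining genes of the media, were abundant in every library. Xist was at 16083, 13145 and 373 normalized counts under the deficient label and at 13.8, 8.87 and 22.0 under the control label, so it did not overlap between the groups. Ddx3y was at 8.55, 0 and 6374 under the deficient label, and 6058 to 6796 under the control label. Labelled-deficient replicate 3 thus lay within the control range for the Y-linked gene and above it for Xist. In bulk tissue, fewer cells of a type and less RNA per cell cannot be told apart.

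Between the groups, the repressor gene Bhlhe40 rose in the labelled ChemR23-deficient libraries, and the other 9 members did not pass the test across all genes. All members but Arntl and Per2, 8 in number, had a difference above 0, among them the REV-ERB, DEC and output genes. The 10 members had a median log2 difference of 0.52, beside -0.01 over all 20669 genes tested, of which 48.8% lay above 0. Limma called 1 of the 10 higher and 0 lower at an adjusted p under 0.05, where 0.0726% of all genes tested were called higher and 0.135% in either direction. At an unadjusted p under 0.05, 4 members were higher (Bhlhe40, Nr1d1, Dbp and Bhlhe41) and 0 lower, beside 6.36% of all genes that were higher and 5.79% that were lower. In 2 members, Bhlhe40 and Nr1d1, every labelled-deficient library lay above every control, as in 8.80% of all genes (17.0% did not overlap in either direction). DESeq2, run on the recovered reads, called the same 2 members higher, against 2.54% of the genes for which it gave an adjusted p (4.38% in either direction). EdgeR called 0 members, against 0.00658% of genes in either direction (1 gene), with 3 members (Bhlhe40, Nr1d1 and Bhlhe41) at an unadjusted p under 0.05. All 10 members passed the filter of a mean of at least 1, and all were well above it in every library. The members, and the lists given below, were chosen with earlier results of these data known. The shares over all genes set beside their counts are therefore description and no test of them.

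**Figure D1:**
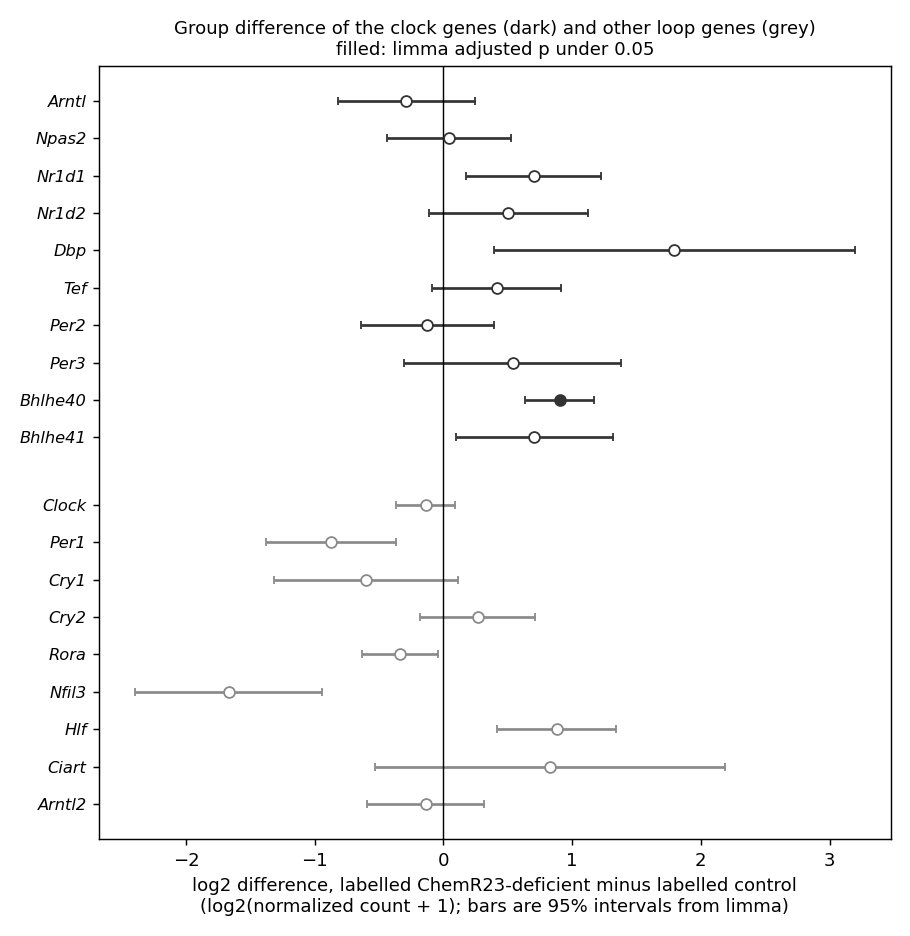
Log2 difference (labelled ChemR23-deficient minus labelled control, log2(normalized count + 1)) of the 10 members in dark and of 9 further loop genes in grey, with 95% limma intervals. Bhlhe40, at 0.90, is the 1 filled point (limma adjusted p under 0.05), and the interval of Dbp, from 0.39 to 3.19, is the widest of the members.

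Bhlhe40 (ENSMUSG00000030103, chromosome 6, 108660629 to 108666925, GRCm38) encodes DEC1, a basic helix-loop-helix repressor that competes at E-boxes and is also induced by hypoxia and by many growth signals. It had 1244, 1337 and 1223 normalized counts in the labelled ChemR23-deficient libraries, against 648, 597 and 801 in the controls. The groups were apart, and the deficient libraries were close to each other. The means were 1268 ± 60.6 in the labelled-deficient and 682 ± 107 in the control libraries (SD, n = 3 each), a log2 difference of 0.90 (SE 0.12, 95% interval 0.63 to 1.17, 1.87-fold on that scale, limma adjusted p = 0.0455). DESeq2 gave the same direction (log2 0.89). The authors' deposited fold changes are not on the scale of those fitted here (see Dbp below). For Bhlhe40 the deposited log2 fold change is -0.80 with an adjusted p of 2.92e-08. It is in the deposited table's own direction, which runs opposite to labelled deficient minus labelled control. The limma call was lost without labelled-deficient replicate 1 (0.92, limma adjusted p = 0.169) or 2 (0.87, limma adjusted p = 0.0926), and without control replicate 1 (0.87, limma adjusted p = 0.174) or 2 (0.81, limma adjusted p = 0.0796). With edgeR on the recovered reads the adjusted p was 0.0659.

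Macrophages also express Bhlhe40, and the sum of their markers, though not each marker, was high in 2 of the 3 labelled-deficient libraries. Cd68 and Lyz2 lay above every control in labelled-deficient replicates 1 and 2. Cd14 and Mrc1 lay below control replicate 2 in both of these libraries, and Adgre1 and Csf1r did so in replicate 1. The summed level of the 6 macrophage markers (Cd68, Adgre1, Csf1r, Lyz2, Cd14 and Mrc1), none of them at 0, came to 19473, 29777 and 5653 for the labelled-deficient replicates in order, and 3634, 7477 and 4478 for the controls. Lyz2 made up most of these sums. Among the 6 genes, Cd68 did not overlap between groups, with 1807, 2050.3 and 572 normalized counts under the deficient label and 256, 321 and 317 under the control label, while Csf1r and Mrc1 were lower in labelled-deficient replicate 3 than in every control. Limma called none of the 6 (Cd68 limma adjusted p = 0.115). The part of macrophages in the Bhlhe40 values was not tested. When replicates 1 and 2, the libraries without Y-linked expression, were set aside, the log2 difference of Bhlhe40 was 0.85 (limma adjusted p = 0.58, with the lone library assumed to vary like the controls).

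Bhlhe41 (ENSMUSG00000030256, chromosome 6, 145858243 to 145865558), which encodes the related repressor DEC2, had 616, 982 and 1066 normalized counts in the labelled ChemR23-deficient libraries, against 455, 433 and 751 in the controls. Labelled-deficient replicate 1 lay below control replicate 3, so the groups overlapped. The log2 difference was 0.71 (SE 0.26, 95% interval 0.10 to 1.31, limma adjusted p = 0.341). Its exons share 1280 bases (19.1%) with the predicted gene Gm43909 on the other strand, which had a mean of 5.92 normalized counts.

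Nr1d1 (ENSMUSG00000020889, chromosome 11, 98767932 to 98775333) encodes REV-ERB alpha, the haem-binding receptor that represses Arntl. It was at 6976, 7956 and 10059 normalized counts in the labelled ChemR23-deficient libraries, against 5324, 3596 and 6779.7 in the controls. The groups did not overlap, but the lowest deficient library stood close above the highest control. The means were 8331 ± 1575 in the labelled-deficient and 5233 ± 1594 in the control libraries (SD, n = 3 each), with a log2 difference of 0.70 (SE 0.23, 95% interval 0.18 to 1.23, limma adjusted p = 0.272). DESeq2 called it (0.67, DESeq2 adjusted p = 0.0394), edgeR did not (edgeR adjusted p = 0.289), and the authors' deposited table gives an adjusted p of 0.0398. Nr1d1 shares 263 exonic bases (8.55%) with Thra, a thyroid hormone receptor gene on the other strand. Thra was at 10735, 10121 and 10659 in the libraries labelled deficient against 10162, 10984 and 9979 in the controls (log2 difference 0.02, SE 0.07, 95% interval -0.14 to 0.17).

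Nr1d2 (ENSMUSG00000021775, chromosome 14, 18204054 to 18239127), the REV-ERB beta gene, had 3817, 5414 and 5898 normalized counts in the labelled ChemR23-deficient libraries and 3279.9, 2497 and 5216 in the controls. Control replicate 3 lay between labelled-deficient replicates 1 and 2, and the difference of 0.50 (SE 0.27, 95% interval -0.11 to 1.12) did not pass (limma adjusted p = 0.506). The order of the libraries was the same for Nr1d2 as for Dbp.

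Dbp and Tef encode proline- and acid-rich leucine zipper activators of D-box genes, and Dbp is among the transcripts of widest daily swing in mouse organs. Dbp (ENSMUSG00000059824, chromosome 7, 45705088 to 45710203) was at 1797, 3722 and 3828 normalized counts in the labelled ChemR23-deficient libraries, against 666, 392 and 2348 in the controls. Controls 1 and 2 were far below all others, and control replicate 3 lay above labelled-deficient replicate 1. The means were 3116 ± 1143 in the labelled-deficient and 1135 ± 1059 in the control libraries (SD, n = 3 each), and the log2 difference of 1.79 had a wide error (SE 0.61, 95% interval 0.39 to 3.19, limma adjusted p = 0.293). It came to 2.53 without control replicate 3 and 1.24 without control replicate 2, neither of them called. In the authors' deposited table the log2 fold change of Dbp is -0.27 (adjusted p of 0.508), in that table's own direction. This is smaller in size than the 1.46 that DESeq2 gave here. Dbp shares 539 exonic bases (18.0%) with Sphk2 on the other strand, which differed by -0.02 (95% interval -0.24 to 0.21).

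Tef (ENSMUSG00000022389, chromosome 15, 81802421 to 81826863) followed the same order at a smaller scale, with 5658.5, 7220.2 and 8632 normalized counts in the labelled ChemR23-deficient libraries against 5561, 3919.8 and 6837 in the controls. Its groups overlapped, and the log2 difference came to 0.41 (SE 0.22, 95% interval -0.09 to 0.91, limma adjusted p = 0.501).

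The period genes differed in their pattern over the libraries. Per3 (ENSMUSG00000028957, chromosome 4, 151003652 to 151044665), with the D-box pair shown above, had 424, 711 and 813 normalized counts in the labelled ChemR23-deficient libraries, against 369, 289 and 746 in the controls. It overlapped between groups (log2 0.54, SE 0.36, limma adjusted p = 0.616). Per2 (ENSMUSG00000055866, chromosome 1, 91415982 to 91459324), a core repressor that also answers acute signals, had 1119, 1275.5 and 2167.5 normalized counts in the labelled-deficient libraries, against 1699, 1436 and 1646 in the controls. The 3 controls were close together, and labelled-deficient replicates 1 and 2 lay below them and replicate 3 above. Its log2 difference of -0.13 (SE 0.22, 95% interval -0.64 to 0.39, limma adjusted p = 0.875) came to -0.41 without labelled-deficient replicate 3 and turned to 0.06 without replicate 1 and to 0.45 without replicates 1 and 2.

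The activator genes showed no difference that passed the test. Arntl (ENSMUSG00000055116, chromosome 7, 113207465 to 113314126) was at 1348, 912 and 860.3 normalized counts in the labelled ChemR23-deficient libraries, against 1279, 1626 and 929 in the controls. High and low libraries occurred in both groups, and the log2 difference was -0.29 (SE 0.23, 95% interval -0.82 to 0.24, limma adjusted p = 0.679). Npas2 (ENSMUSG00000026077, chromosome 1, 39193731 to 39363236) was at 1749.8, 1236 and 1118 in the libraries labelled deficient, against 1464, 1524 and 989.8 in the controls (log2 difference 0.04, SE 0.21, 95% interval -0.44 to 0.53, limma adjusted p = 0.959). Its sign turned when labelled-deficient replicate 1 or control replicate 3 was left out, to -0.15 in both cases.

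**Figure D2:**
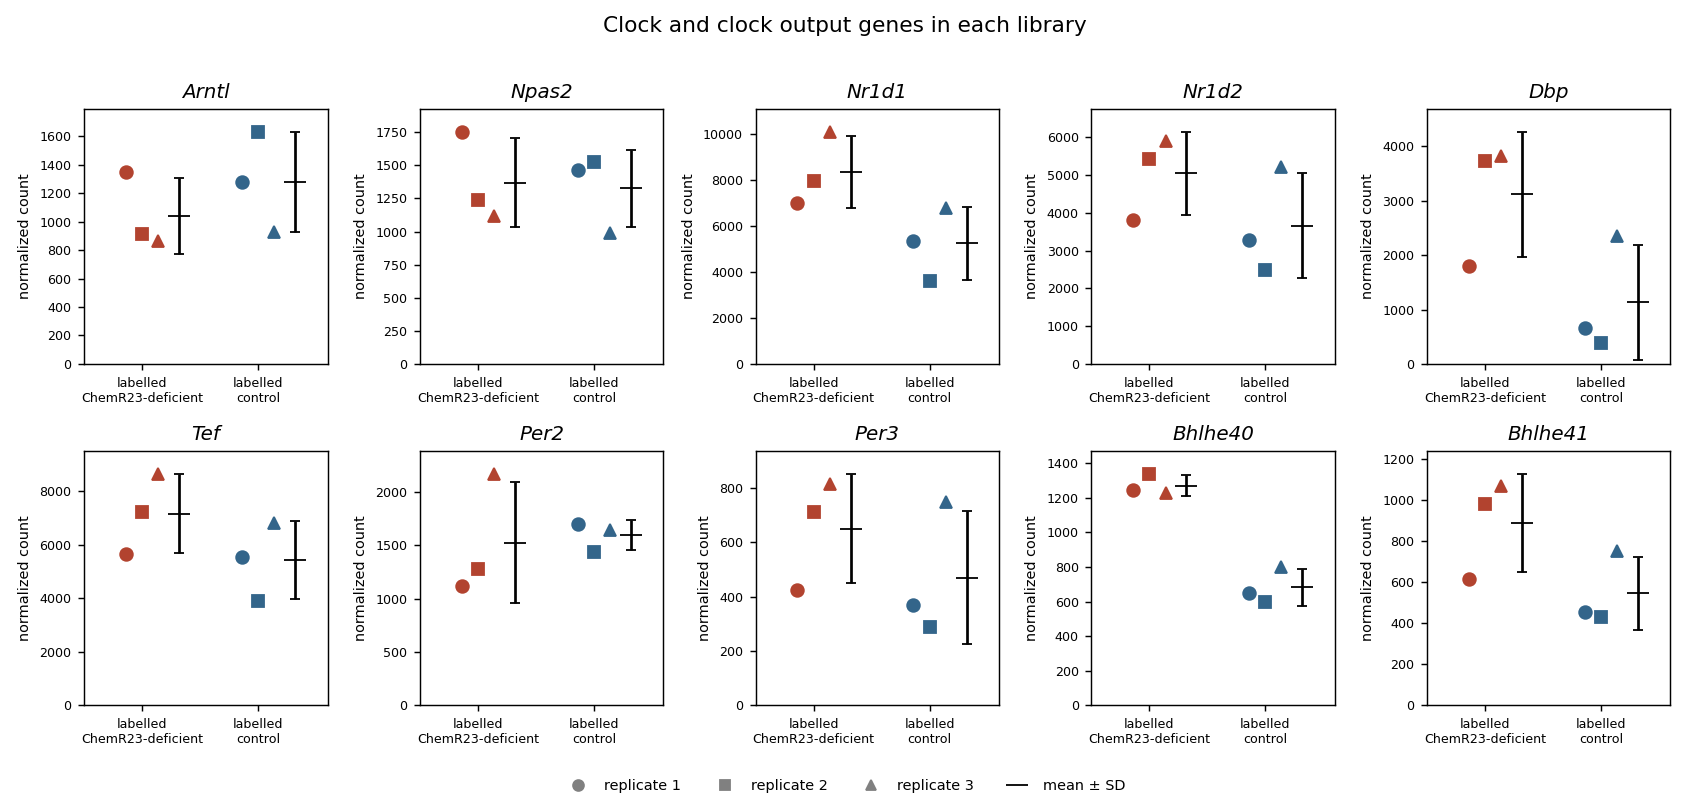
Normalized counts of the 10 members in each library, with labelled ChemR23-deficient in red and labelled control in blue, symbols for replicates and black bars for mean ± SD (n = 3). Bhlhe40 and Nr1d1 are the 2 genes whose groups do not overlap, and in most other panels control replicate 3 sits among the deficient libraries.

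Most of the members varied more between libraries of 1 group than genes in general. The spread is given as the log2 range, the highest minus the lowest library of a group on the log2(normalized count + 1) scale, beside 11635 genes whose mean reached 100. Their median range was 0.21 among the labelled-deficient libraries and 0.22 among the controls. Dbp ranged over 1.09 among the labelled-deficient libraries and over 2.58 among the controls, where 0.464% of those genes were wider. Its control range exceeded the group difference of 1.79. Per3 ranged over 0.94 in the libraries labelled deficient and 1.363 in the controls, and Nr1d2 over 0.63 in the labelled-deficient and 1.06 in the control libraries. For Arntl the ranges were 0.65 in the libraries labelled deficient and 0.81 in the controls, and 5.26% of genes were wider among the controls. Bhlhe40 was tight among the deficient libraries, with a range of 0.13 that 74.7% of genes exceeded, against 0.42 in the controls. Per2 ranged over 0.95 in the libraries labelled deficient and 0.24 in the controls.

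The same libraries were often at the extremes, while the full order of the 6 libraries was shared by Nr1d2, Dbp, Tef and Bhlhe41 and differed in the other members. Labelled-deficient replicate 3 was the highest of the 6 libraries for 7 members (Nr1d1, Nr1d2, Dbp, Tef, Per2, Per3 and Bhlhe41) and the lowest for Arntl. Control replicate 2 was the lowest for 7 members (Nr1d1, Nr1d2, Dbp, Tef, Per3, Bhlhe40 and Bhlhe41) and the highest for Arntl. Relative to the mean of 6 libraries, the log2 value of Dbp was at 1.27 and that of Arntl at -0.39 in labelled-deficient replicate 3, and Dbp at -2.01 and Arntl at 0.53 in control replicate 2. The log2 ratio of Dbp to Arntl, whose daily phases are opposite, was 0.41, 2.03 and 2.15 in the labelled ChemR23-deficient libraries, against -0.94, -2.05 and 1.34 in the controls. Control replicate 3 thus lay above labelled-deficient replicate 1, and the 2 groups overlapped in this ratio. Read as Nr1d1 over Npas2, a pair chosen after the values were seen, the log2 ratio was 1.995, 2.69 and 3.17 in the libraries labelled deficient, against 1.86, 1.24 and 2.78 in the controls, again overlapping.

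**Figure D3:**
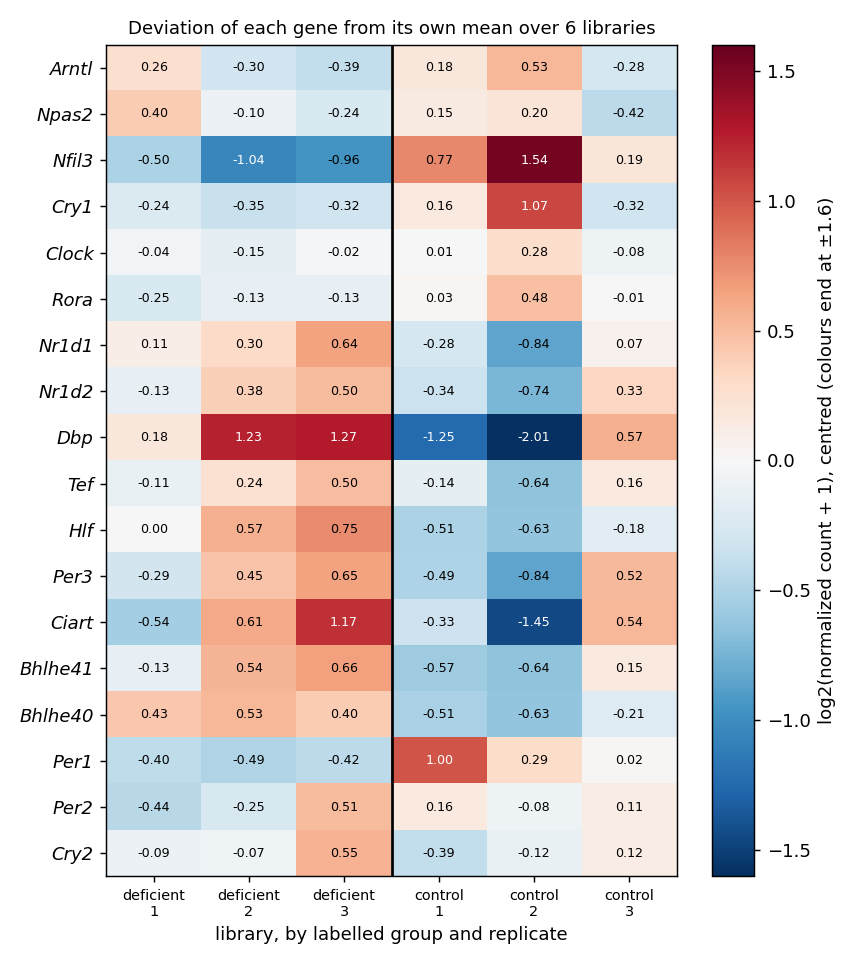
Heat map of log2(normalized count + 1) for 18 clock genes, each centred on its own mean over the 6 libraries, with labelled ChemR23-deficient replicates left of the line and controls right of it. In control replicate 2 Arntl (0.53) is red and Dbp (-2.01) blue, whereas in labelled-deficient replicate 1 Arntl (0.26), Npas2 (0.40), Dbp (0.18) and Nr1d1 (0.11) are all above their means.

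Levels between genes were compared as normalized counts per kilobase of merged exons. Nr1d1 stood highest in all 6 libraries, at 2707 ± 512 per kilobase in the labelled ChemR23-deficient libraries and 1701 ± 518 in the controls (SD, n = 3 each). Next came Nr1d2 (932 ± 201 in deficient and 677 ± 259 in control libraries), Tef (911 ± 189 in deficient and 691 ± 186 in control libraries) and Dbp (1041 ± 382 in deficient and 379 ± 354 in control libraries). These 3 neighbours exchanged places between libraries. Npas2, Per2, Bhlhe40 and Arntl followed with means over all 6 libraries of 281, 266, 207 and 154 per kilobase, and each pair of neighbours among them overlapped. Bhlhe41, at 107 per kilobase over all libraries, was above Per3, at 58.2, in 6 of 6 libraries, although their ranges overlapped.

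The pattern of single members was also compared with all other genes, as the root mean square difference between centred log2 values over the 6 libraries among 15147 genes with a mean of at least 10. Among the 5 nearest to Arntl were Leo1 (0.11), Pcdhb7 (0.12), Pole (0.13) and Rpl21-ps7 (0.13), while Npas2 stood at 0.19. Leo1 had a mean of 634 normalized counts, but Pcdhb7, Pole and Rpl21-ps7 were low, at 41.75, 51.2 and 11.02. Nearest to Dbp were Tnnc2 (0.43), Gm13881 (0.50), Gm35167 (0.52), Mia (0.57) and Ciart (0.59), and the nearest member was Per3 (0.73). These 5 genes were all low, with means of 11.69 (Gm35167) to 43.64 (Mia) normalized counts, against 2125 for Dbp. Ciart, which encodes a repressor of the BMAL1 complex, had 23.7, 54.0 and 79.9 normalized counts in the labelled ChemR23-deficient libraries, against 27.5, 12.2 and 51.1 in the controls (log2 difference 0.83, SE 0.59, limma adjusted p = 0.636). Over 6 libraries such nearness describes the libraries and was not tested.

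A list of 10 further genes of the loop was read beside the members. Rorb was at 0 to 1.11 normalized counts and was not tested. Of the other 9, limma called 0, where it called 0.135% of all genes. DESeq2 called 1 higher and 2 lower, against 2.54% and 1.84% of the genes for which it gave an adjusted p. At an unadjusted limma p under 0.05 there were 1 higher and 3 lower, against 6.36% and 5.79% of all genes. The median log2 difference of the 9 was -0.14. The largest difference was in Nfil3, the D-box repressor, with 301, 206 and 219 normalized counts in the labelled ChemR23-deficient libraries against 729, 1239 and 487 in the controls. These groups did not overlap (log2 -1.67, SE 0.31, 95% interval -2.39 to -0.94, limma adjusted p = 0.098, DESeq2 adjusted p = 9.82e-07). Hlf, an activator related to Dbp and Tef, had 827, 1224 and 1389 in the libraries labelled deficient against 581, 531 and 727 in the controls, also without overlap (log2 0.88, SE 0.20, limma adjusted p = 0.145, DESeq2 adjusted p = 7.06e-04). Dbp, Tef and Hlf thus had differences above 0 and Nfil3 one below 0, and limma called none of the 4.

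Per1 is a period gene that glucocorticoids induce directly. It was at 969, 916 and 958 normalized counts in the labelled ChemR23-deficient libraries, against 2572, 1569 and 1297 in the controls. All 3 deficient libraries lay below all controls (log2 -0.87, SE 0.22, 95% interval -1.38 to -0.36, limma adjusted p = 0.181, DESeq2 adjusted p = 0.00135). Among the controls replicate 1 was highest for Per1, whereas Arntl and Nfil3 were highest in replicate 2. Rora, an activator at ROR elements, was at 3824, 4145 and 4150.1 in the libraries labelled deficient, against 4633, 6330.1 and 4509 in the controls (log2 difference -0.34, SE 0.13, limma adjusted p = 0.355). The difference came to -0.18 without control replicate 2. Cry1 differed by -0.60 (SE 0.31, limma adjusted p = 0.495), and by -0.22 without control replicate 2 and -0.91 without control replicate 3, with 550.2 normalized counts in control replicate 2 and 205 to 292 in every other library. Clock (-0.14, SE 0.10), Cry2 (0.27, SE 0.19) and Arntl2 (-0.14, SE 0.20) had limma adjusted p-values of 0.635 to 0.835.

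Genes that modify clock proteins showed no call. Of 11 kinase, ligase and other regulator genes, limma and DESeq2 called 0 each. Among the genes to which each gave an adjusted p, 0.135% and 4.38% were called. None had an unadjusted limma p under 0.05, against 12.2% of all genes, and the median log2 difference was -0.03. The 3 with the lowest p were Sirt1 (-0.19, SE 0.11), a deacetylase, Fbxw11 (0.11, SE 0.07), a ubiquitin ligase subunit for PER proteins, and Fbxl21 (-0.35, SE 0.25), one for CRY proteins. Of 7 output genes limma called 0. DESeq2 called 1 lower, against 1.84% of the genes for which it gave an adjusted p. This was Nampt, the rate-limiting enzyme of NAD salvage. It had 3587, 3906 and 3532 normalized counts in the labelled-deficient libraries, against 5099, 4443 and 4403 in the controls, with no overlap (log2 -0.34, SE 0.08, limma adjusted p = 0.165, DESeq2 adjusted p = 0.0199). Tspan4 (0.33, SE 0.13) and Tsc22d3 (-0.50, SE 0.22), which cycle in many mouse organs, had limma adjusted p-values of 0.391 and 0.421.

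Glucocorticoid-responsive genes, which also follow the daily corticosterone rhythm, were read beside the clock because Per1 belongs to both. Of 10 such genes 9 had a difference below 0, all but Dusp1 (0.55, SE 0.27). Limma called 2 lower (Mt1 and Mt2) and 0 higher, and DESeq2 called 5 lower. Among the genes to which each gave an adjusted p, 0.0629% and 1.84% were called lower. This list was chosen with earlier results of these data known, so its counts describe it and do not test it. In 6 of the 10 all labelled-deficient libraries lay below all controls, as in 8.24% of all genes. Fkbp5, a cochaperone of the receptor, was at 655, 389.6 and 1058 normalized counts in the labelled ChemR23-deficient libraries, against 3768, 2746 and 1754 in the controls (log2 difference -2.02, SE 0.38, limma adjusted p = 0.098, DESeq2 adjusted p = 0.00425). Zbtb16, a zinc finger factor gene, was at 1085, 1104 and 1371 in the libraries labelled deficient, against 12290.2, 8006 and 1461 in the controls (log2 difference -2.15, SE 0.68, limma adjusted p = 0.262, DESeq2 adjusted p = 0.0266). For Per1, Fkbp5, Zbtb16 and Mt1 the controls ran in 1 order, replicate 1 above 2 above 3, which is not their order for Dbp or Arntl. Mt1, a metallothionein gene that fell, was at 1891, 2037 and 1995 in the libraries labelled deficient against 4846, 4296 and 4006 in the controls (log2 difference -1.15, SE 0.08, limma adjusted p = 0.0194). Mt2, another metallothionein gene that fell, had 831, 826 and 754 normalized counts under the deficient label, against 2174, 2006 and 1519.8 in the controls (log2 difference -1.23, SE 0.13, limma adjusted p = 0.0450).

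**Figure D4:**
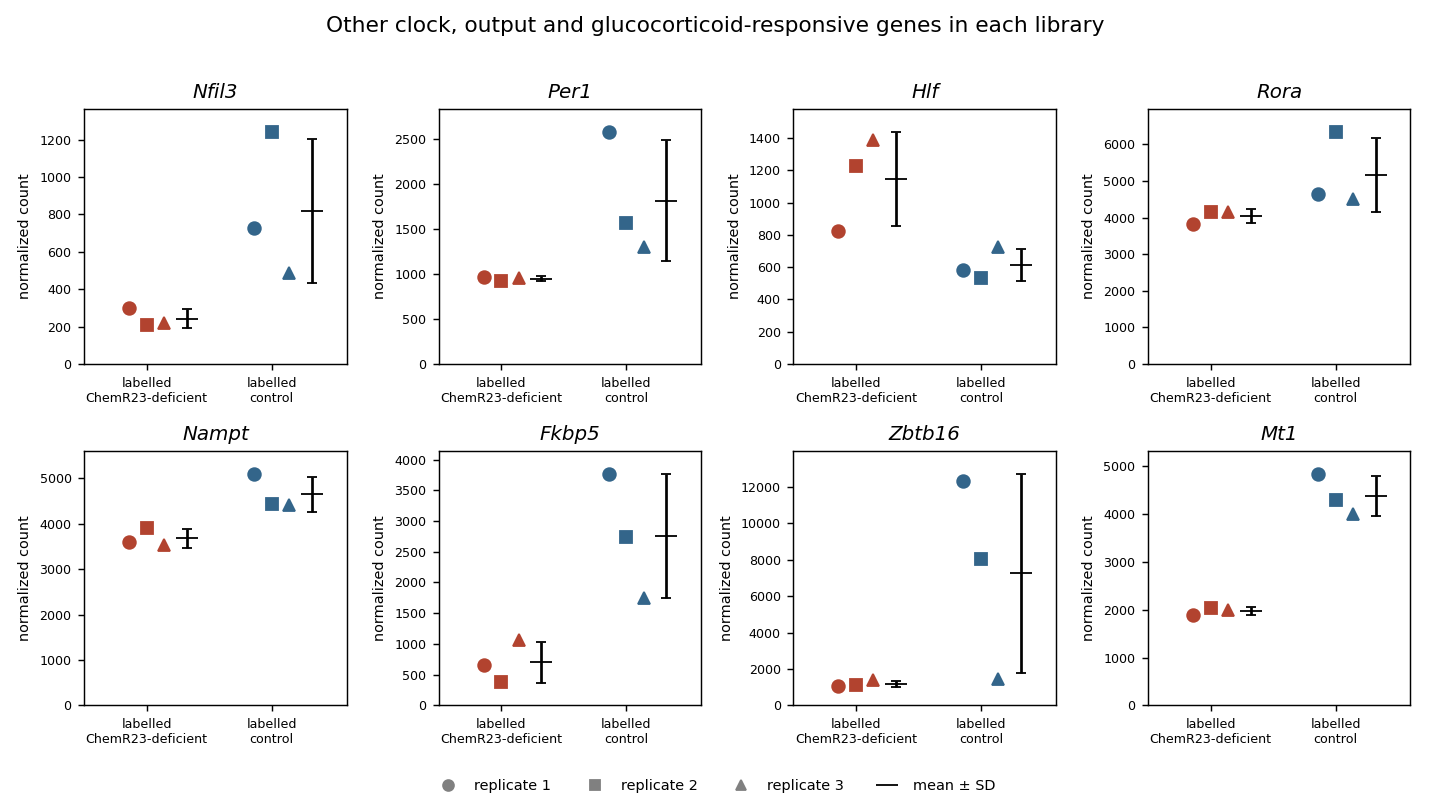
Normalized counts per library of 4 further loop genes (Nfil3, Per1, Hlf and Rora), the output gene Nampt and 3 glucocorticoid-responsive genes (Fkbp5, Zbtb16 and Mt1), with labelled ChemR23-deficient in red left of labelled control in blue, and bars for mean ± SD (n = 3). The groups do not overlap in any of the 8 panels. The SD of the controls is the larger in every panel but that of Hlf (289 deficient, 102 control). The 8 genes are a choice from lists that also hold genes whose groups overlap, such as Cry1, Tsc22d3 and Klf9. Over all genes tested, 17.0% did not overlap in either direction.

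Markers of other cell types differed along with the groups or along with single libraries. The 6 erythroid markers, none at 0, summed to 1660, 3620 and 11093 normalized counts in the labelled ChemR23-deficient libraries, against 93002, 101311 and 289253 in the controls. Every control was above every labelled-deficient library in this sum, and 1 of the 6 genes was called lower (Hbb-bt, one of several near-identical globin genes that can share reads). The part of red cell RNA in the clock differences was not tested. The 6 adipocyte markers, which include the brown fat gene Ucp1, summed to 1972, 23562 and 1715 in the libraries labelled deficient, against 10692, 48360 and 10980 in the controls, with Lep and Ucp1 at 0 in some libraries. Control replicate 2, where 7 members were lowest, had the highest adipocyte sum, and control replicate 3, whose Dbp count lay between those of labelled-deficient replicates 1 and 2, was close to control replicate 1 in this sum. The part of fat cells in the members' values was not tested. The fibroblast and endothelial sums overlapped between the groups, but 3 of 6 fibroblast markers and 1 of 6 endothelial markers did not. Over all genes tested, 17.0% did not overlap in either direction, a share that 1 of 6 does not depart from. These were Dcn (log2 difference -0.93), Pdgfra (-0.30), Col1a1 (0.65) and Emcn (-0.67), with limma adjusted p-values of 0.101 to 0.402. Their part was not tested either.

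**Figure D5:**
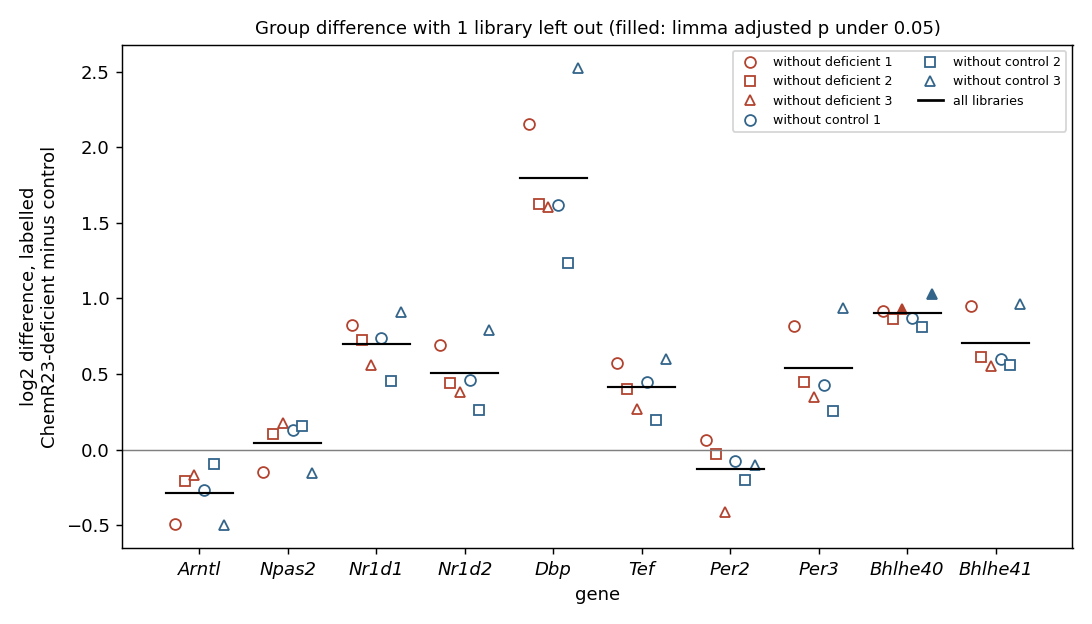
Log2 difference (labelled ChemR23-deficient minus labelled control) of each member when 1 library is left out, with red symbols for a deficient library, blue for a control, filled where limma adjusted p was under 0.05, and a black line for all 6 libraries. Bhlhe40 stays between 0.81 and 1.03, Dbp spans 1.24 to 2.53, and Npas2 and Per2 lie on both sides of 0.

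With 1 library left out at a time, the sign held for 8 of the 10 members. Nr1d1 ranged over 0.45 to 0.91, Nr1d2 over 0.26 to 0.79, Bhlhe41 over 0.56 to 0.96, Per3 over 0.25 to 0.94, Tef over 0.20 to 0.60 and Arntl over -0.50 to -0.10. For these genes and for Dbp, leaving out control replicate 3 gave the difference farthest from 0, and leaving out control replicate 2 the one nearest to 0, except for Bhlhe41, where labelled-deficient replicate 3 did. None of the 7 was called in any of these fits. With labelled-deficient replicates 1 and 2 set aside for their low Ddx3y, the differences were 2.17 for Dbp, 0.99 for Nr1d1, 0.92 for Per3 and -0.53 for Arntl, none of them called.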

How the data were processed

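RNA of the aortic media and intima was measured in 6 libraries, 3 per label, prepared with the TruSeq Stranded mRNA kit and read as 50 bp pairs, per the labels' protocols. The submitters' processing notes name HISAT2 2.2.1 and featureCounts 2.0.1, beside bcl2fastq 2.20, R 4.2.0 and DESeq2 1.36.0, and build GRCm38. Annotation and strand setting: not given in the sources used here. Hence it is not known whether reads of a gene and of a partner on the other strand were told apart. The deposited signal is the read count per gene divided by a factor of its library (100% were whole multiples of the smallest value, within 0.001), and is called the normalized count. The deposited table also holds the authors' log2 fold change, test score, p-value and adjusted p-value. Symbols missing for 3422 genes were filled for 3304 from the reference list.

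The members and lists were chosen with earlier results of these data known. Libraries were grouped by the genotype label and numbered in deposition order, and the numbers pair nothing. The main test was limma 3.58.1 (eBayes with trend, two-sided, Benjamini-Hochberg over all genes) on log2(normalized count + 1), which understates changes of low genes, for 20669 genes with a mean of at least 1. Named were all members and loop genes, the 5 genes nearest in pattern to Arntl and to Dbp, and from the other lists each gene called by limma or DESeq2 and the 3 of lowest limma p; 2 genes under this rule are not reported here. Alternatives were a pseudocount of 10, no filter, a mean of at least 10, TMM scaling, DESeq2 1.42.0 and edgeR 4.0.16 on recovered reads, no trend, 1 library left out, and Y-linked expression (Ddx3y above 100) as a split or a covariate. Scripts were tested on simulated data.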

Additional observations from a re-analysis of the deposited data

How the results depend on the processing

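No paired analysis was possible because the labels give library names and no replicate numbers. Limma called 28 of 20669 genes, and this count was 91 with no filter, 1 with a mean of at least 10, 713 with DESeq2, 1 with edgeR, 6 without the trend, 0 among the libraries with Y-linked expression (1285 at an unadjusted p under 0.05), 0 with the Y-linked covariate (1485 unadjusted), and 0 to 434 with 1 library left out. It was 434 without labelled-deficient replicate 3, when group and Y-linked expression coincide, 7 without control replicate 3 and 0 without any other single library (1706 to 2540 at an unadjusted p under 0.05). Of the members, 1 was called, against 2 with DESeq2, 0 with a mean of at least 10, edgeR, no trend, the Y-linked split or covariate, and 0 to 1 with 1 library left out. Bhlhe40 kept a log2 difference of 0.81 to 1.03 throughout, with limma adjusted p-values of 0.0544 for the stricter filter, 0.185 without trend, 0.58 for the split and 0.46 for the covariate, and an edgeR adjusted p of 0.0659. Leaving out 1 library gave -0.15 to 0.18 for Npas2 and -0.41 to 0.06 for Per2. The Y-linked split and covariate both compare labelled-deficient replicate 3 alone with the controls, so their log2 differences are the same by design. Npas2 reversed to -0.15 without labelled-deficient replicate 1 or control replicate 3 and to -0.22 with either Y-linked alternative. Per2 reversed to 0.06 without labelled-deficient replicate 1 and to 0.45 with either Y-linked alternative. The causes were not tested. The number of libraries, 3 a group, limits the precision.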
